A study of Mus musculus with 6 samples.

Results

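Inhibitory receptors are surface proteins that T cells display once activated and that dampen signalling from the antigen receptor. The genes described here are 9 such receptors: Pdcd1, Lag3, Havcr2, Tigit, Ctla4, Cd160, Btla, Cd5 and Entpd1. They were found by exact gene name in the deposited table, which held all 9 among its 54532 genes. All 9 had a mean of at least 0.5 FPKM (fragments per kilobase of gene length, scaled for each library) over the 6 samples, and so were among the 12654 genes tested.

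The samples were 6 RNA sequencing libraries of mouse CD8 T cells, the cytotoxic T cell lineage, purified from spleen and lymph nodes. The 3 samples of the WT group carried the genotype label WT and the 3 of the KO group the label PTPMT1 KO. In both groups the cells had been stimulated in culture for 3 days with beads that carried antibodies to CD3 and CD28, so all samples were activated and none was resting. PTPMT1 is a phosphatase of the mitochondrial inner membrane that acts in cardiolipin synthesis. The strain, age and sex of the mice, whether the deletion was limited to T cells, and which exons were removed are not stated in the labels. The labels also do not say whether each replicate was its own animal. Every p-value here therefore reflects only how these 6 samples scatter, which may be technical in part, and within WT wholly. In these bulk samples, fewer cells that express a gene and less RNA per cell cannot be told apart.

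Most of these receptors work through a ligand, often on a partner cell. CTLA-4 outcompetes the costimulatory receptor CD28 for CD80 and CD86. PD-1, the product of Pdcd1, binds PD-L1 and PD-L2 and recruits tyrosine phosphatases. LAG-3 resembles CD4 and binds MHC class II and FGL1. TIM-3 (Havcr2) binds galectin-9 and CEACAM1 among others, and TIGIT binds the poliovirus receptor. BTLA and CD160 share the ligand HVEM (Tnfrsf14). CD5 is a scavenger-family receptor that tunes down antigen receptor signals, and CD39, the product of Entpd1, degrades extracellular ATP on the way to adenosine. Activation itself induces several of them, so their presence does not mark exhaustion.

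The libraries held 14932604 to 16819913 reads, rebuilt from the FPKM values. Ptpmt1, the targeted gene, was lower in each KO sample (1.0004 to 1.58 FPKM) than in each WT sample (3.75 to 4.13). KO replicate 3 stood apart: it had 0 reads of Xist and 1837 of the Y-linked Ddx3y, while the other 5 libraries had at least 3513 of Xist and 0 of Ddx3y. By these genes KO replicate 3 was male and the other 5 libraries female, so the KO libraries did not all come from the same animal. Fits that include KO replicate 3 therefore mix the sexes, in KO only. CD8 T cell markers were all expressed, and their summed level was 1743 to 2184 FPKM in WT and 1675, 1952 and 1123 in KO replicates 1 to 3. For gamma-delta T cells the 8 markers summed to 27.0 to 54.8 FPKM in WT and to 27.9, 64.4 and 175 in KO replicates 1 to 3, with Trdc at 22.2 in the last. Helper and regulatory T cells also carry CTLA-4, TIGIT and CD39. Of their markers, Cd4 was at most 1.86 FPKM and Foxp3 at most 0.60. Zbtb7b had 0.66, 1.22 and 1.20 FPKM in WT and 2.02, 1.62 and 5.44 in KO. Ikzf4 was 3.11 in KO replicate 3 and at most 1.44 in the other libraries. Among the 5 of these markers that were tested, 3 had a higher and 2 a lower log2 fold change. The 7 markers of those cells summed to 6.75 to 15.7 FPKM in WT and to 12.0, 7.36 and 51.3 in KO replicates 1 to 3, mostly Tnfrsf4 (41.4) in the last. Of the 6 natural killer markers, Ncr1 was at most 0.30 FPKM, Klra8 at most 1.94 and Klre1 at most 8.72, the latter pair highest in KO replicate 2, and Gzma was at 38.6 to 251. Because KO replicate 3 stood apart, the log2 fold change of each receptor is given with and without that library.

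Lag3 was lower in KO than in WT in every sample and was the receptor gene with the clearest difference. Its level in WT was 22.4, 21.4 and 23.0 FPKM in replicates 1 to 3. In KO it was 10.6, 7.37 and 12.8 FPKM. The highest KO value lay well under the lowest WT value, and the WT samples lay close together, with a coefficient of variation of 3.71% against 26.8% in KO. The means were 22.2 ± 0.825 and 10.3 ± 2.75 FPKM (SD, n = 3 each), from 692 to 852 reads per WT sample and 204 to 489 per KO sample.

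The log2 fold change of Lag3 was -1.11 (SE 0.216, 95% interval -1.62 to -0.60), which is 2.16-fold lower in KO on the log2(FPKM + 0.5) scale. In limma the unadjusted p was 0.00133 and the Benjamini-Hochberg adjusted p over all genes was 0.0912, so Lag3 missed the threshold of 0.05. With 3 samples against 3, an exact 2-sided permutation test cannot go below 0.1, and Lag3 reached that p = 0.1. Only 0.0395% of all genes tested passed the threshold, and 1.46% had an adjusted p as small as that of Lag3. Without KO replicate 3 the log2 fold change was -1.28 and the adjusted p 0.0344, in a fit where 13.7% of all genes passed. Over the alternatives tried, the adjusted p of Lag3 ranged from 0.000437 to 0.427, and its log2 fold change from -1.37 to -0.63.

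The value nearest to 0 came when each library was scaled to its CD8 T cell markers. All 10 markers had a negative log2 fold change, but not each was lower in every KO sample. Cd8a had 182 to 219 FPKM in WT and 109 to 145 in KO. Cd3d had 236 to 410 in WT and 319, 488 and 159 in KO replicates 1 to 3. That scaling moved the median of all genes from 0.03 to 0.46, and Lag3 then had -0.63 (limma adjusted p = 0.216). It stayed below the median gene under both scalings. Whether the lower marker level has a part in the level of Lag3 was not tested.

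**Figure D1:**
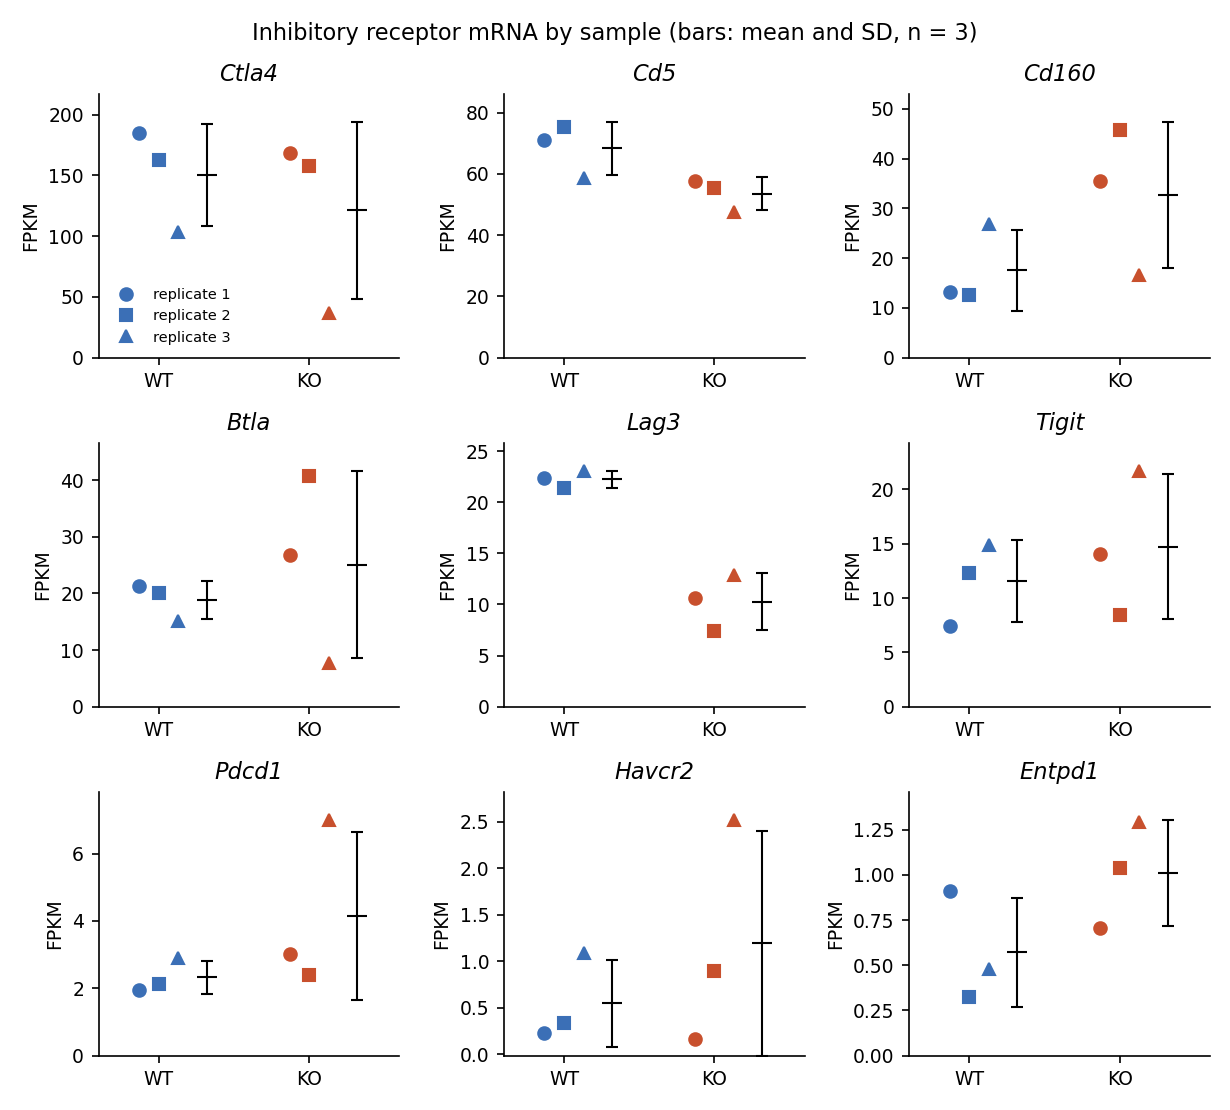
FPKM of the 9 receptor genes in each sample (y axis, linear, a separate scale per gene), by genotype (x axis); symbols mark replicates 1 to 3 and bars the mean and SD (n = 3). The KO samples of Lag3 (7.37 to 12.8) lie under all WT samples (21.4 to 23.0), whereas the Ctla4 groups overlap, with KO replicate 3 at 37.1.

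Lag3 (ENSMUSG00000030124, mm10 chromosome 6, 124904361 to 124911705, minus strand) lies between Cd4 and Ptms. Ptms, which encodes parathymosin, lies 1976 bases from Lag3 on the same strand, and its groups did not overlap either. Ptms had 38.9, 46.0 and 40.4 FPKM in WT and 20.8, 17.6 and 22.8 in KO (log2 fold change -1.02, SE 0.167, limma adjusted p = 0.0884). The fold differences of these neighbours were close in size, and their lowest KO value was in replicate 2 for both. Mlf2, the next gene on the other strand, went the other way, at 23.3 to 27.6 FPKM in WT and 29.4 to 32.4 in KO (log2 fold change 0.27, limma adjusted p = 0.332). Cd4, the relative of Lag3 on its other side, was at 0.44 to 1.86 FPKM in WT and 0 to 0.14 in KO. At this locus neighbours were chosen by position alone.

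The genes that followed Lag3 most closely over the 6 samples, by Pearson correlation of log2(FPKM + 0.5) among 6300 protein-coding genes of at least 5 FPKM, were Cenpt, Ctsb, Gbp4, Idh2 and Cnn2. Their correlations were 0.995 to 0.997. All 5 were lower in KO in every sample, which follows from choosing them by likeness to Lag3. Their log2 fold changes were smaller than that of Lag3 (-1.11), at -0.32, -0.55, -0.35, -0.67 and -0.48 in the order named. Cenpt encodes a kinetochore protein, Ctsb the lysosomal protease cathepsin B, Gbp4 an interferon-inducible GTPase, Idh2 the mitochondrial isocitrate dehydrogenase and Cnn2 a calponin. A correlation above 0.9 was reached by 426 of the 6300 genes, so high correlations with Lag3 were common over these 6 samples.

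**Figure D2:**
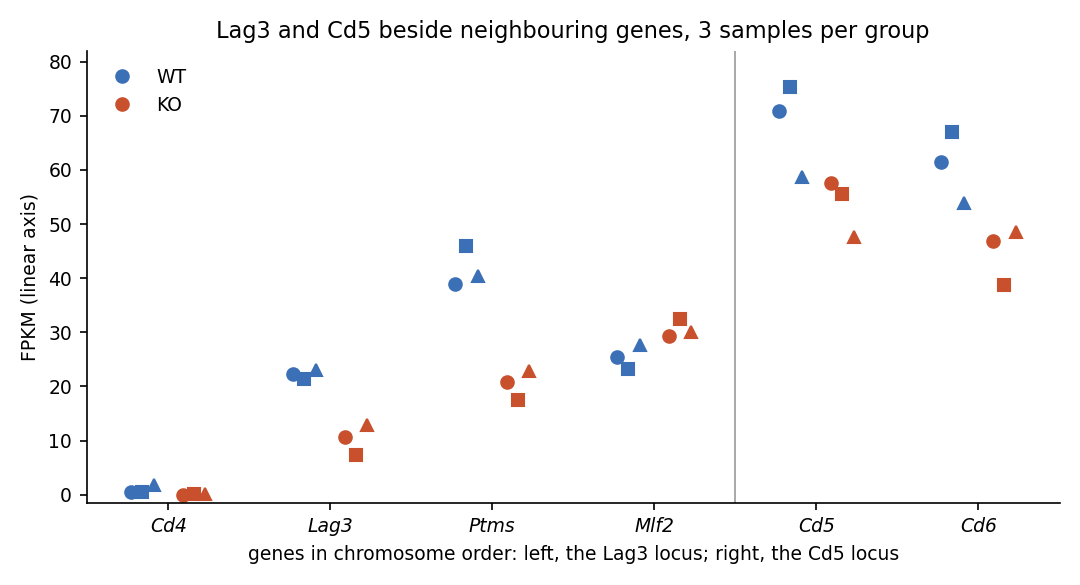
FPKM (y axis, linear) of Lag3 and Cd5 beside genes of the same loci in chromosome order (x axis), blue for WT and red for KO, with 1 symbol per sample. Lag3, Ptms, Cd5 and Cd6 were lower in every KO sample than in every WT sample, while Mlf2 was higher. Vps37c and Pga5, which lie nearer to Cd5 than Cd6 does, are not drawn.

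Cd5 (ENSMUSG00000024669, chromosome 19, 10717116 to 10739002, minus strand) was the other receptor gene whose groups did not overlap. It had 71.0, 75.4 and 58.7 FPKM in WT and 57.6, 55.5 and 47.6 in KO, so the gap between the lowest WT and the highest KO sample was small. The log2 fold change was -0.35 (SE 0.175, 95% interval -0.76 to 0.07, limma adjusted p = 0.295), and -0.26 without KO replicate 3. Groups that do not overlap were found for 27.8% of all genes, 13.3% lower in KO, and the 2 of 9 receptors compare with that share. Scaled to the CD8 T cell markers, Cd5 had a log2 fold change of 0.14, where the median gene had 0.46.

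Cd6, 50339 bases from Cd5 on the same strand, encodes a related scavenger-family receptor and followed the same order of groups. It had 61.4, 67.1 and 54.0 FPKM in WT and 46.8, 38.7 and 48.5 in KO (log2 fold change -0.44, SE 0.173, limma adjusted p = 0.204). Vps37c lies nearer, 2489 bases from Cd5 on the other strand, and its groups overlapped. Its level was 4.93 to 6.08 FPKM in WT and 3.69 to 6.01 in KO (log2 fold change -0.25, limma adjusted p = 0.519). Pga5, 39045 bases from Cd5, had 0 reads in every sample.

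Cd160 (ENSMUSG00000038304, chromosome 3, 96798763 to 96829351, minus strand) encodes a receptor anchored in the membrane by a lipid and had the highest log2 fold change of the receptor genes, but its groups overlapped. Its level was 13.1, 12.5 and 26.9 FPKM in WT and 35.5, 45.8 and 16.7 in KO. Replicates 1 and 2 separated the genotypes, whereas WT replicate 3 was above KO replicate 3. For Cd160 the log2 fold change was 0.85 (SE 0.438, 95% interval -0.18 to 1.89, limma adjusted p = 0.302). Without KO replicate 3 it was 1.27 (limma adjusted p = 0.0632). Without both replicates numbered 3 it was 1.61 with an adjusted p of 0.0334, in a fit chosen after seeing the data in which 14.7% of all genes passed. Its adjusted p ranged from 0.000898 to 0.643 over the alternatives.

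Btla (ENSMUSG00000052013, chromosome 16, 45224315 to 45257670, plus strand), the other receptor for HVEM, had 21.3, 20.2 and 15.1 FPKM in WT and 26.7, 40.7 and 7.77 in KO. KO replicates 1 and 2 were above all WT samples and KO replicate 3 below all of them. For Btla the log2 fold change was 0.14 (SE 0.554, 95% interval -1.18 to 1.45), and 0.81 without KO replicate 3 (limma adjusted p = 0.0729). The shared ligand gene Tnfrsf14 was lower in each KO sample, at 22.3, 23.6 and 19.9 FPKM in WT and 12.9, 8.05 and 18.9 in KO (log2 fold change -0.78, limma unadjusted p = 0.0339, adjusted p = 0.194). Tnfsf14, or LIGHT, another partner of HVEM, was higher in each KO sample, with means of 5.75 and 9.72 FPKM (log2 fold change 0.74, unadjusted p = 0.0172, adjusted p = 0.155 in limma).

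Ctla4 (ENSMUSG00000026011, chromosome 1, 60887000 to 60915832, plus strand) was the receptor gene of highest level in both groups. WT samples had 185, 163 and 103 FPKM and KO samples 169, 158 and 37.1. KO replicate 3 was far below the other 5 samples, and the remaining KO samples lay within the range of WT. The log2 fold change was -0.55 (SE 0.589, 95% interval -1.94 to 0.85), and it turned to 0.16 without KO replicate 3. The gene body on chromosome 1 also holds a ribosomal protein pseudogene on the same strand, Rpl18-ps1, at 0.84 to 3.35 FPKM. Of the costimulatory genes in the same cluster, Icos had means of 25.4 and 25.6 FPKM (log2 fold change -0.03, SE 0.229) and Cd28 had 41.9 and 31.1 (log2 fold change -0.41, SE 0.282).

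Pdcd1 (ENSMUSG00000026285, chromosome 1, 94038305 to 94052553, minus strand), which encodes PD-1, was at a low level, at 1.96, 2.13 and 2.89 FPKM in WT and 3.03, 2.41 and 7.01 in KO. KO replicate 3 was the highest sample by a wide margin, and KO replicate 2 lay inside the range of WT. The log2 fold change was 0.60 (SE 0.366, 95% interval -0.26 to 1.47, limma adjusted p = 0.373), and 0.19 without KO replicate 3. The ratio of Lag3 to Pdcd1 within a library was 7.96 to 11.4 in WT and 1.83 to 3.50 in KO.

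Tigit (ENSMUSG00000071552, chromosome 16, 43648867 to 43664146, minus strand) had 7.44, 12.3 and 14.9 FPKM in WT and 14.0, 8.46 and 21.7 in KO. The groups overlapped throughout, apart from KO replicate 3 at the top, and the log2 fold change was 0.30 (SE 0.381, 95% interval -0.61 to 1.20) with all samples and -0.023 without that library. Havcr2 (ENSMUSG00000020399, chromosome 11, 46454935 to 46481255, plus strand) had 0.22, 0.34 and 1.09 FPKM in WT and 0.16, 0.90 and 2.53 in KO. These rest on 7 to 124 reads, and the 7 reads of KO replicate 1 have a 95% exact Poisson interval of 2.81 to 14.4, which covers counting error only. The log2 fold change of Havcr2 was 0.51 (SE 0.596, 95% interval -0.90 to 1.93) and -0.036 without KO replicate 3. Entpd1 (ENSMUSG00000048120, chromosome 19, 40612366 to 40741602, plus strand), which encodes CD39, had 0.91, 0.33 and 0.48 FPKM in WT and 0.71, 1.04 and 1.29 in KO, from 28 to 130 reads (log2 fold change 0.51, SE 0.314, 95% interval -0.23 to 1.26, and 0.38 without KO replicate 3). Its KO samples lay mostly above WT, but WT replicate 1 was above KO replicate 1.

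**Figure D3:**
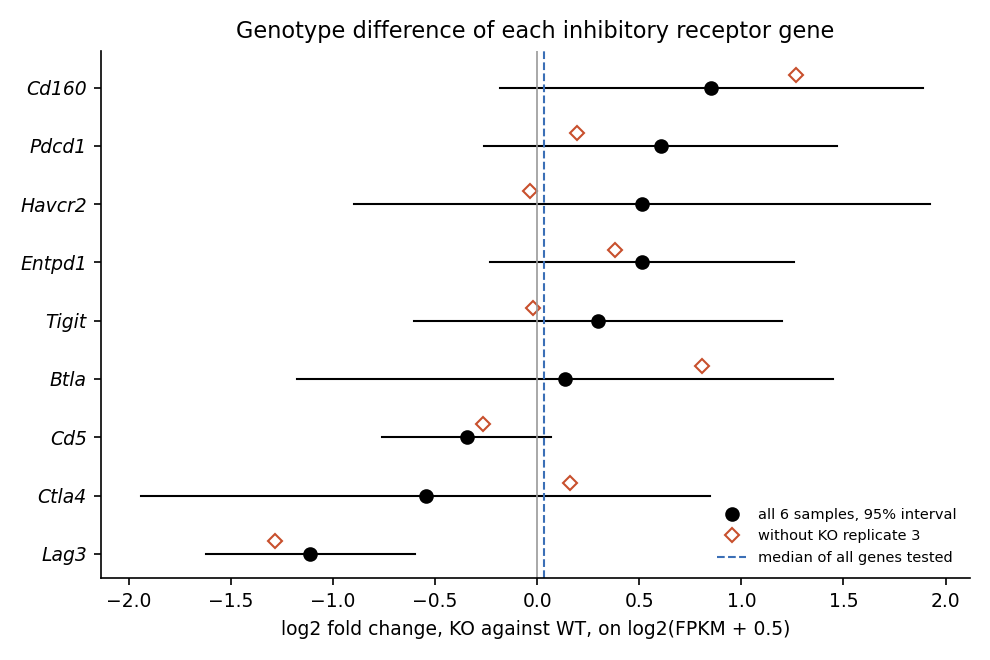
Log2 fold change of KO against WT (x axis) for each receptor gene (y axis); filled points and lines give the limma estimate and its 95% interval from all 6 samples, open diamonds the estimate without KO replicate 3, and the dashed line the median of all genes tested (0.03). Only the interval of Lag3 lies wholly on one side of 0 (-1.62 to -0.60), and Ctla4 moves from -0.55 to 0.16.

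Over the list, 6 of 9 receptors had a higher and 3 a lower log2 fold change, with a median of 0.30. Of all genes tested 52.4% were higher, with a median of 0.03. In limma 0 of 9 were called, in a fit where only 0.0395% of all genes tested passed. With limma-voom on rebuilt reads it was also 0 of 9, where 1 of 12654 genes passed. Counts of 0 therefore do not set these receptors apart from other genes. With array weights, which let libraries count by how closely they follow the fit, 4 of 9 were called (Lag3, Cd160, Cd5 and Pdcd1), in a fit where 53% of all genes passed. At an unadjusted p under 0.05 there was 1, Lag3, against 21.8% of all genes tested. All genes tested that were lower in KO at that p made up 10.2%, and those higher 11.5%.

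In WT the order of levels was Ctla4, Cd5, Lag3, Btla, Cd160, Tigit, Pdcd1, Entpd1 and Havcr2. The ranges of Btla and Cd160, of Cd160 and Tigit, and of Entpd1 and Havcr2 overlapped, and the other neighbours in that order did not, although the lowest Lag3 sample (21.4 FPKM) was close to the highest Btla sample (21.3). In KO the order was Ctla4, Cd5, Cd160, Btla, Tigit, Lag3, Pdcd1, Havcr2 and Entpd1, so Lag3 went from place 3 to place 6. There the only neighbours whose ranges did not overlap were Cd5 with Cd160 and Lag3 with Pdcd1. The 9 receptors together summed to 246 to 323 FPKM in WT, to 317 and 319.9 in KO replicates 1 and 2, and to 155 in KO replicate 3.

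Replicate 3 was the highest of its group in both genotypes for Lag3, Tigit, Pdcd1 and Havcr2, and the lowest in both for Ctla4, Cd5 and Btla. That makes 7 of 9 receptors, against 44.9% of all genes tested. Cd160 went the other way, highest in WT replicate 3 and lowest in KO replicate 3, and Entpd1 had its highest WT value in replicate 1 and its highest KO value in replicate 3. Over the 6 samples the Pearson correlation of log2(FPKM + 0.5) was 0.86 between Ctla4 and Btla and 0.85 between Pdcd1 and Tigit, while that between Ctla4 and Pdcd1 was -0.95. These points share library and scaling, and KO replicate 3 is an extreme in each. That library also had the highest gamma-delta marker sum, the lowest CD8 marker sum, and 2.38% of reads from mitochondrial genes against 3.38% to 7.53% in the others. Its neutrophil and mast cell markers summed to 42.7 FPKM, of which Cpa3 made up 25.9, against 5.82 to 18.9 in the others. B cell markers, mostly Cd79b, summed to 25.2, 18.9 and 20.1 FPKM in WT and to 14.0, 13.6 and 15.6 in KO. WT replicate 3 had the highest sum in its group for gamma-delta markers, and its sum of natural killer markers, 258 FPKM, was mostly Gzma, which activated CD8 T cells also express. Their part in the order of these receptors was not tested.

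**Figure D4:**
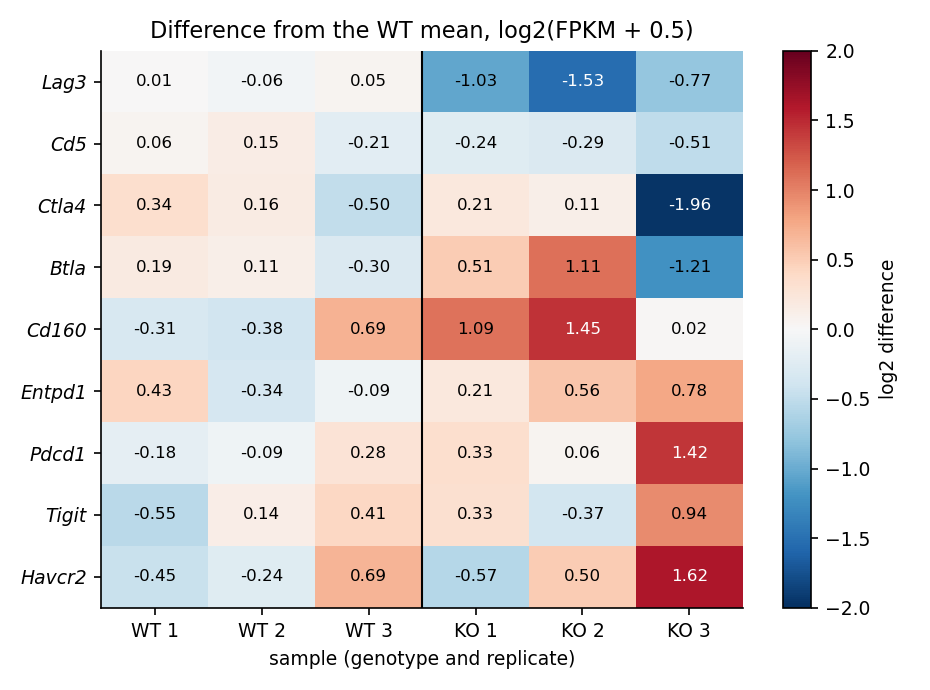
Difference of each sample from the WT mean on the log2(FPKM + 0.5) scale (colour and printed value), for the 9 receptor genes (rows) in the 6 samples (columns). Lag3 is below 0 in all KO samples (-1.53 to -0.77), and KO replicate 3 has the lowest Ctla4 (-1.96) and the highest Havcr2 (1.62).

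Promoters of genes that followed each other over the samples are shown for the letters GGAAA, the core bound by NFAT, a factor switched on by calcium signals from the antigen receptor. The windows are the 250 bases before the transcription start from RefSeq (build GRCm38.p6), for 8 of the 9 receptors. The Ctla4 window lies inside the longer GENCODE gene. Ctla4 and Btla are shown as a pair with a high correlation over the samples, and so are Pdcd1 and Tigit; they were chosen after their values were seen. Capitals mark each match on either strand, where TTTCC is a match on the opposite strand, and ETS factors share part of these letters.
Ctla4 promoter, chr1:60908775-60909024, plus strand: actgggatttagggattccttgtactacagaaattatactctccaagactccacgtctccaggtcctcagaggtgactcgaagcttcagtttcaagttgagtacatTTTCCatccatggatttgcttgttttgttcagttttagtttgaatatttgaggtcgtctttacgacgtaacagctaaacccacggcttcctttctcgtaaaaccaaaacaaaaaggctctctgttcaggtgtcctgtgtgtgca
Btla promoter, chr16:45224087-45224336, plus strand: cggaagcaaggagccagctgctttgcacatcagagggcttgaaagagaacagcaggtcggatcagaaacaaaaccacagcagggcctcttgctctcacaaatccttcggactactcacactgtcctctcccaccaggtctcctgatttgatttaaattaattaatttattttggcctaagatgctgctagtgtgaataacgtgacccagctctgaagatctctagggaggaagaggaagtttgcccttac
Pdcd1 promoter, chr1:94052554-94052803, minus strand: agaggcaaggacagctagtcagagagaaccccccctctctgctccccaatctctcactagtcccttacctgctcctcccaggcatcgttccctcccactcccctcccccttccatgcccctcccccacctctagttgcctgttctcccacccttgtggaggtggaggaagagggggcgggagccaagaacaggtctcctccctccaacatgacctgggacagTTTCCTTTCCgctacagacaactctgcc
Tigit promoter, chr16:43664185-43664434, minus strand: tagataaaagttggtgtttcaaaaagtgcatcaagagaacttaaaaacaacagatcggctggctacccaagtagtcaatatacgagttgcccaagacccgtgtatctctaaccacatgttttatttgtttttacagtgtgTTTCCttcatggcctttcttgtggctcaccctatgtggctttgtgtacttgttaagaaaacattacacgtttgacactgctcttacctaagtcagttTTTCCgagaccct
Matches numbered 1 in Ctla4, 0 in Btla and 2 each in Pdcd1 and Tigit. Havcr2, highest in replicate 3 like Pdcd1 and Tigit, had 0. Cd5, lowest in replicate 3 like Ctla4 and Btla, also had 0. Lag3, highest in replicate 3 too, was the receptor without a window. Cd160 and Entpd1 each had 2 windows, at different starts, with 0 and 1 matches for Cd160 and 0 and 2 for Entpd1. Whether the count is related to the order of replicates was not tested. Of all 32851 promoter windows of this length, 55.6% held at least 1, so its presence is common. Nfatc1, which encodes an NFAT factor and is given here for that motif, had 14.9, 14.7 and 14.8 FPKM in WT and 8.46, 6.12 and 11.8 in KO (log2 fold change -0.77, limma unadjusted p = 0.0143, adjusted p = 0.149).

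The wider checkpoint pathway was described with 7 gene lists, which held 139 tested genes. None was called by limma, in a fit where only 0.0395% of all genes tested passed. An unadjusted limma p under 0.05 was found for 38, or 27.3%, of which 9 were higher and 29 lower in KO. Over all genes tested that share was 21.8%, and the counts of each list below are to be read against it. Their median log2 fold change was -0.17. Without KO replicate 3, 57 of the 139 had such a p, 44 of them lower, against 4428 of all 12654 genes tested. In that fit 27 of the 139 were called, against 13.7% of all genes. After rescaling to equal total FPKM, which moved the median of all genes to -0.20, 39 of 40 genes with such a p were lower. Over all 12654 genes 2115 had such a p in that fit. Scaled to the CD8 T cell markers, 4 of 31 such genes were lower and the rest higher. Over all 12654 genes that scaling gave 4343 with such a p. The directions of the pathway genes below therefore hold for the values as deposited.

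Among ligands 13 of 19 were tested, with 5 higher, 8 lower and 4 with an unadjusted limma p under 0.05. Lgals3, a galectin that binds LAG-3, had means of 5.66 and 9.73 FPKM (log2 fold change 0.76). Cd80, a ligand of CTLA-4, had 0.88 and 1.79 (0.78), and Cd72, reported as a partner of CD5, had 5.26 and 3.02 (-0.70). Tnfrsf14 is given above. The PD-1 ligands, named for their role, had 11.6 and 10.5 FPKM for Cd274 (-0.32) and 0.52 and 2.03 for Pdcd1lg2 (1.21, unadjusted p = 0.0534 in limma). The close means of Cd274 came from 11.4 to 11.9 FPKM in WT and 6.91, 5.93 and 18.7 in KO replicates 1 to 3.

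Further inhibitory receptors were mostly lower in KO, in 15 of 20 tested genes with a median of -0.36, and 6 had an unadjusted p under 0.05 in limma, all lower. Pecam1, an adhesion receptor with inhibitory motifs, had 34.0, 32.1 and 19.9 FPKM in WT and 12.1, 11.2 and 11.7 in KO (log2 fold change -1.23, SE 0.226, adjusted p = 0.0884). Vsir, which encodes VISTA, had means of 37.5 and 19.7 FPKM (-0.89), and the adaptor gene Lax1 had 36.8 and 21.3 (-0.79). Tgfbr2, a receptor for TGF-beta, had 19.6 and 12.0 (-0.73). Klra7 had 8.16 to 13.9 FPKM in WT and 2.01, 6.99 and 0.13 in KO, which is uncertain because near-identical Klra genes may split reads. All 6, with Cd6 above, had adjusted p between 0.0884 and 0.204.

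Costimulatory genes, which are receptors apart from the ligand gene Tnfsf14 given above, went both ways. Of 13 tested genes, 6 were higher and 7 lower, and limma gave an unadjusted p under 0.05 for 3 and 2 of these. Tnfrsf9, or 4-1BB, had means of 15.1 and 30.6 FPKM (1.99-fold higher in KO, adjusted p = 0.143) and Tnfrsf18, or GITR, had 34.3 and 57.8 (0.73, adjusted p = 0.130). Cd27 had 132 and 81.6 (-0.70, adjusted p = 0.130) and Cd2 had 134 and 97.2 (-0.46, adjusted p = 0.213).

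Enzymes and adaptors that relay or resemble the inhibitory signal were lower in 20 of 29 tested genes, 7 lower and 1 higher having an unadjusted limma p under 0.05. The phosphatase gene Ptpn22 had 40.5, 47.1 and 36.2 FPKM in WT and 23.4, 24.0 and 24.3 in KO (log2 fold change -0.77, SE 0.158, adjusted p = 0.0968). The diacylglycerol kinase genes Dgkz and Dgka, whose products restrain signalling, had means of 53.9 and 34.2 FPKM (-0.65) and of 135 and 66.1 (-1.06). The ubiquitin ligase genes Cblb and Cbl had 17.8 and 11.1 (-0.66) and 15.5 and 9.77 (-0.65). The kinase gene Fyn had 61.7 and 44.3 (-0.47). Ptpn11 and Ptpn6, named as the phosphatases that PD-1 and its relatives recruit, had a log2 fold change of -0.079 (SE 0.222) and of 0.083 (SE 0.220).

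In the adenosine pathway, which holds the substrates and products of CD39, 7 of 14 tested genes were higher and 1 had an unadjusted p under 0.05 in limma. That was Cd38, an ectoenzyme that consumes NAD, with means of 0.88 and 1.89 FPKM (log2 fold change 0.82, adjusted p = 0.194). Nt5e, which encodes CD73 and follows CD39 in the pathway, had 3.77 and 3.41 FPKM (-0.14). Among genes of receptor trafficking and shedding, 7 of 15 were higher and 1 had such a p. That was Trat1, an adaptor that helps carry CTLA-4 to the surface, at 7.63, 5.85 and 7.73 FPKM in WT and 14.6, 18.8 and 26.0 in KO (log2 fold change 1.40, SE 0.239, limma adjusted p = 0.0884). Adam10 and Adam17, the proteases that shed LAG-3, had log2 fold changes of -0.12 and -0.063.

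Transcription factors known to act at the receptor genes were lower in 24 of 35 tested genes, 12 lower and 1 higher having an unadjusted limma p under 0.05. Ikzf3 had 34.6, 34.7 and 29.8 FPKM in WT and 17.8, 15.4 and 19.3 in KO (log2 fold change -0.90, adjusted p = 0.0884). Ets1 had means of 111 and 57.6 FPKM (-0.92), Ikzf1 99.8 and 66.5 (-0.59), Foxo1 12.0 and 7.29 (-0.66) and Fos 2.67 and 0.73 (-1.35), and Tcf7, which marks T cells that are not yet fully differentiated, 489 and 237 (-1.05). Tox, a factor of exhausted T cells, had 1.81 and 1.19 FPKM (-0.44, limma unadjusted p = 0.0870), and Nr4a1, induced by antigen receptor signals, had 3.96 and 5.32 (0.34, limma unadjusted p = 0.435). These were named for their role.

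**Figure D5:**
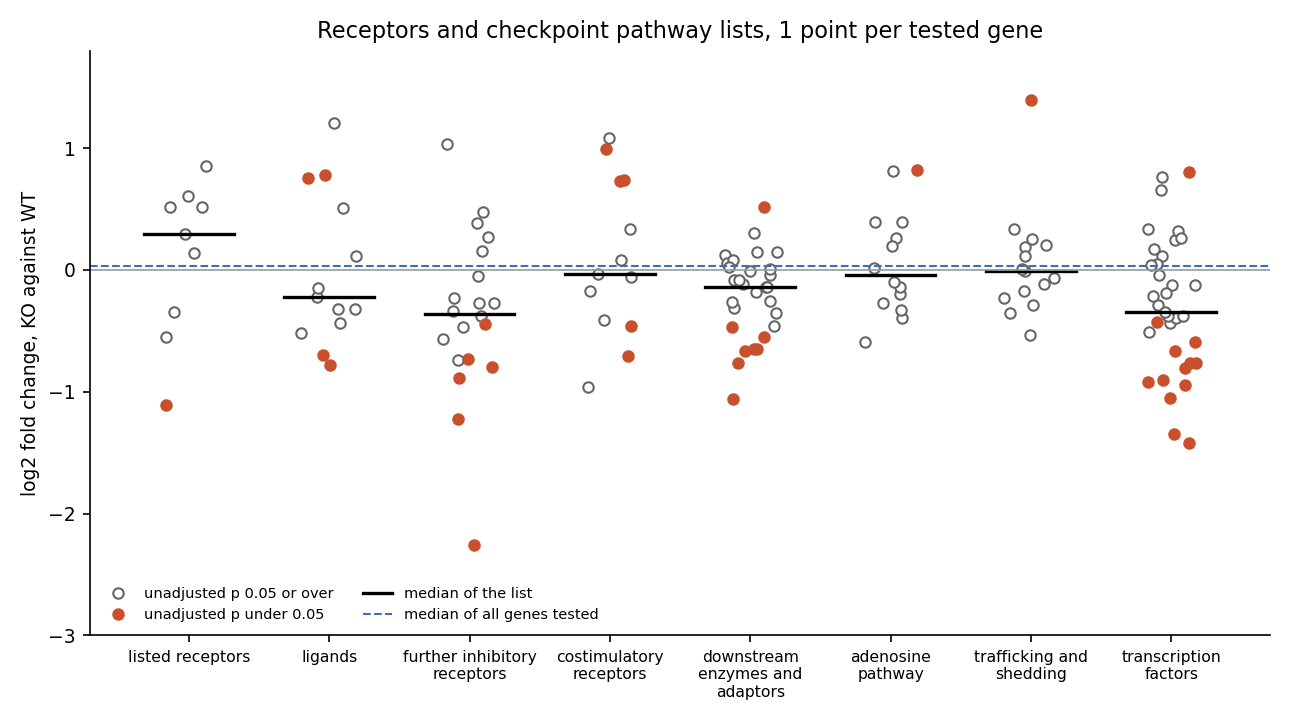
Log2 fold change of KO against WT (y axis) for each tested gene (points) of the listed receptors and of 7 checkpoint pathway lists (x axis); filled points had an unadjusted limma p under 0.05, black bars are list medians and the dashed line is the median of all genes (0.03). The medians lay at 0.30 for the listed receptors and at -0.36 for the further inhibitory receptors.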

How the data were processed

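Per the file headers, the authors deposited 1 FPKM value per gene and sample, with gene length as another column. Per the submitters' processing notes, the tools were featureCounts 1.5.0-p3, HISAT2 2.0.5, Trim Galore and DESeq2 and the build was mm10, named without roles. Per the labels' protocols, a stranded mRNA kit was used. The strand setting of the counting is not given in the sources used here, so overlapping genes are uncertain. Multiplied by gene length, at least 99.99% of the FPKM values above 0 in each sample were whole multiples (tolerance 0.05) of the worth of 1 read, from which reads were rebuilt. The library size implied by that worth was 0.78 of the rebuilt reads in KO replicate 2 and 1.10 in KO replicate 3. The deposited scale was therefore not plain sequencing depth. FPKM over all genes summed to 357607 in KO replicate 3 and 605554 in KO replicate 2, so sums of FPKM depend on that scale.

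Values were analysed as log2(FPKM + 0.5) for genes with a mean of at least 0.5 FPKM. KO was compared with WT in limma 3.58.1 under R 4.3.3 (lmFit, eBayes with a mean-variance trend, 2-sided), with Benjamini-Hochberg adjustment over all 12654 genes and a threshold of 0.05. Because of the pseudocount, fold changes of low genes come out too small. The fit was tested on simulated data. Positions come from GENCODE M21 (mm10), to which 54409 gene identifiers matched. The members, gene lists and tests were chosen with earlier results of these data known. Named were all 9 receptors, Ptpmt1, up to 6 genes per list with an unadjusted p under 0.05 and the 5 genes most like Lag3. Neighbouring genes and those said to be named for their role or motif were added after values were seen. Same-numbered samples correlated at 0.13, 0.07 and 0.33 in their deviations from group means, and differently numbered ones at -0.31 to 0.27. The labels do not say that the numbers pair samples, so a replicate block was run only as an alternative. Alternatives covered limma-voom, leaving out samples in turn, a replicate block, array weights, the variance trend, scaling, the filter and the pseudocount; scaling to the CD8 T cell markers and leaving out both replicates numbered 3 were added after seeing the data. Python 3.11.15 and matplotlib 3.10.9 made tables and plots.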

Additional observations from a re-analysis of the deposited data

How the results depend on the processing

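Lag3, Cd160, Pdcd1 and Entpd1 kept their direction under all alternatives run, 18 each for Lag3, Cd160 and Pdcd1 and 17 for Entpd1. With each sample left out in turn, log2 fold changes ranged from -1.28 to -0.90 for Lag3, 0.56 to 1.27 for Cd160, -0.35 to 0.81 for Btla, -0.92 to 0.16 for Ctla4, -0.036 to 1.06 for Havcr2 and -0.023 to 0.63 for Tigit. Those of Ctla4, Havcr2 and Tigit reversed without KO replicate 3. Btla reversed without WT replicate 3 (-0.012), KO replicate 1 (-0.051) or KO replicate 2 (-0.35), and after rescaling to equal total FPKM (-0.13). Cd5 reversed when scaled to the CD8 T cell markers (0.14). Lag3 passed without KO replicate 3, and both Lag3 (-1.26) and Cd160 (1.61) passed without both replicates numbered 3. Array weights gave a weight of 9.10 to KO replicate 1 and 0.192 to KO replicate 3. With them 53% of genes passed, among them Lag3 (-1.02), Cd160 (1.35), Cd5 (-0.33) and Pdcd1 (0.45), and Havcr2 reversed (-0.24).

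The median over the receptors was 0.16 to 0.49 with 1 sample left out, 0.14 at a mean of at least 1 FPKM, which leaves 7 of them, 0.041 with equal totals and 0.77 when scaled to the CD8 T cell markers. The count of genes called was 5 as reported, 2 to 1733 with 1 sample left out, 3 with a pseudocount of 1 or no filter, 14 with no variance trend, 12 with the replicate block, 1 with limma-voom, 6710 with array weights, 1711 scaled to the CD8 T cell markers, 13.5% of genes, and 1863 without both replicates numbered 3. The replicate block called 0 of the 9 receptors. Of the 139 pathway genes, those at an unadjusted p under 0.05 numbered 21 to 57 with 1 sample left out. They numbered 87 with array weights and 64 without both replicates numbered 3. Over all 12654 genes tested the same fits gave 1338 to 4428, 7485 and 4828, so the pathway counts rose along with those of all genes. The causes were not tested. Havcr2 and Entpd1 rest on 7 to 130 reads. The Poisson intervals of Havcr2 in the KO samples (2.81 to 14.4, 21.9 to 45.2 and 103 to 148 reads) did not overlap, so these samples differed by more than counting error.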
